A study of Mus musculus with 24 samples.

Results

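The 44 genes described here encode Polycomb group proteins, the DNA methyltransferases and the TET enzymes that oxidise methylated cytosine, and a set of histone demethylases, methyltransferases and deacetylases. They were listed by name rather than by a measured value, although earlier results of these data were known when they were chosen. A consensus ATAC-seq peak counted as theirs where the deposited annotation gave one of the 44 as the peak's gene and put the peak within 50000 bp of that gene's transcription start site (TSS). By this rule 211 of the 150646 peaks belonged to 42 of the 44 genes. The 40 promoter peaks, at 1000 bp or less from the TSS, belonged to 26 genes, and the 171 distal peaks belonged to 36 genes. Ring1 and Tet1 had no peak by the rule.

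ATAC-seq uses the Tn5 transposase to tag open chromatin, so the count in a peak reflects how accessible that stretch of DNA was. The cells were small intestinal epithelium of C57BL/6JRj mice, taken from the gut without culture and sorted for EpCam and against CD45, with 3 aged and 3 young libraries, each numbered 1, 2 and 4 and described in 4 lane records. The ages of 20 to 22 months for aged and 2 to 3 months for young stand in the design text of the series, which assigns ATAC-seq to organoids, whereas the labels of these samples name freshly isolated cells. For these samples the sources give no sex, genotype beyond the strain or treatment. They also do not say that each library came from its own mouse, so p-values measured the spread between libraries, which may be technical.

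Polycomb repressive complex PRC2 methylates histone H3 at K27 through Ezh1 or Ezh2, and PRC1 ubiquitinates histone H2A through Ring1 or Rnf2 and compacts chromatin that carries the PRC2 mark. Dnmt1, brought to replicated DNA by Uhrf1, copies existing DNA methylation, Dnmt3a and Dnmt3b set it anew, and the TET enzymes start its removal. In the intestine these systems are known for keeping programmes of other lineages silent and for balancing stem cell renewal against differentiation, and Bmi1 has been used as a marker of a slowly cycling crypt cell.

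The 6 libraries held between 6149680 counts in peaks (young 4) and 23935291 (aged 2). Young 4, the shallowest, had 3.89 times fewer counts than the deepest, so values at low peaks were least precise there. Of 12 epithelial marker genes 9 are in the RefSeq table of starts, among them Epcam, Vil1 and Cdx2, and all 9 had a promoter peak. Their summed accessibility, in counts scaled to a common library total (CPM), ranged from 1147 to 1182 CPM in aged and from 1149 to 1181 CPM in young libraries. Of 12 leukocyte markers, 8 in the table, only Cd68 had a promoter peak (10.8 to 19.7 CPM in aged, 9.63 to 12.1 CPM in young), and of 10 stromal and vascular markers, 6 in the table, 4 had one (20.7 to 30.6 CPM in aged, 21.2 to 22.1 CPM in young). The highest of both sums was in aged 4, and their part in the results below was not tested. CPM used TMM library scaling, done separately for peaks, annotated promoters, RefSeq promoters and distal sums, so levels cannot be compared across these 4 scales.

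The annotation lists a single TSS per gene and gives each peak to the nearest one. For 18 of the 44 genes, among them Ezh1, Ezh2, Eed, Rnf2, Bmi1 and Tet3, it therefore left no promoter peak. RefSeq lists starts for 38 of the 44 (Pcgf1, Cbx2, Kdm6b, Kmt2b, Hdac1 and Hdac3 are not in the table used), and all 38 had a peak within 1000 bp of a RefSeq start. In 15 of the 38 every such peak carried the name of another gene. The peak over the Ezh2 start, for example, was assigned to Gm25283 at -41955 bp, and that over the Kmt2a start to Gm26249 at -16346 bp. Both readings were tested, and they are called annotated promoters and RefSeq promoters.

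RefSeq promoter sequences of the members were rich in CpG, the dinucleotide that DNA methyltransferases modify and that Kdm2b binds when it is unmethylated. Over 53 windows of 300 bases (250 before to 50 after a start, build GRCm38.p6, 38 genes) the median was 27 CpG and 67.3% GC, against 7 CpG and 52.7% GC over all 32851 windows of the table. Of the 53 windows, 49 touched a peak and 31 lay wholly in peaks. The 4 windows outside peaks, at alternative starts of Dnmt1, Mtf2, Phc2 and Pcgf5, held 2 to 5 CpG. Restricted to windows that touched a peak, the medians were 30 CpG for the members and 20 CpG for all 15663.

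E2F factors, which drive genes of DNA replication and S phase, bind sequences such as TTTGGCGC, TTTCCCGC and TTTCGCGC. These 3 strings, none of which contains another, were searched on both strands. They occurred in 5 of 53 member windows (9.43%) against 1.85% of all windows, or 10.2% against 3.28% of windows that touched a peak. The shares were not matched on CpG content, and a match is only a description of letters. The 5 windows belonged to Dnmt1, Uhrf1, Ezh2, Suz12 and Phf19, which join DNA methylation and PRC2, and they are shown 5′ to 3′ on the strand of the gene with the matched letters in capitals. They lie at chr9:20952574-20952873 (minus strand), chr17:56304063-56304362 (plus strand), chr6:47594981-47595280 (minus strand), chr11:79992856-79993155 (plus strand) and chr2:34913927-34914226 (minus strand).
Dnmt1: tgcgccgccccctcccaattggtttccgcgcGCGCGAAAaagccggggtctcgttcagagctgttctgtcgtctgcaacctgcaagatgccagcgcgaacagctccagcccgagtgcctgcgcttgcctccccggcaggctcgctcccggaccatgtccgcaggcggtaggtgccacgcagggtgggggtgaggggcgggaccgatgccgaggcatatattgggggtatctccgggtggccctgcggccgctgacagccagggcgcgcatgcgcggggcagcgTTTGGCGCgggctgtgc
Uhrf1: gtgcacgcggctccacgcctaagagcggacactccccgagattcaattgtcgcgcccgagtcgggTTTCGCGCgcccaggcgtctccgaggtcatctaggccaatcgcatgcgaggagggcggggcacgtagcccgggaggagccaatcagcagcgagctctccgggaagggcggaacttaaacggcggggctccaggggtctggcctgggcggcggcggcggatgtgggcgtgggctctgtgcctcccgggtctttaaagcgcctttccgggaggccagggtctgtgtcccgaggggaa
Ezh2: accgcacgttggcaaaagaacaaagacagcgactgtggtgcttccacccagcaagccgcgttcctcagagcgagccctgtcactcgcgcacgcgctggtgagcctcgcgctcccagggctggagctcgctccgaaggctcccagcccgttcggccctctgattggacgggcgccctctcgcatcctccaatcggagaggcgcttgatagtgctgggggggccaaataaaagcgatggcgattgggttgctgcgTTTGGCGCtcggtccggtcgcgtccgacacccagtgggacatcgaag
Suz12: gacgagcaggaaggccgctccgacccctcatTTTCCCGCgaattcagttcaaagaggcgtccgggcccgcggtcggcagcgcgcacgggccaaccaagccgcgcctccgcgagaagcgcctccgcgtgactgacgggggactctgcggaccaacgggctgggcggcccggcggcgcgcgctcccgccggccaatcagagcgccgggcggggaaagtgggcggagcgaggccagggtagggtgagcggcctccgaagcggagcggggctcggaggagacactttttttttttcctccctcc
Phf19: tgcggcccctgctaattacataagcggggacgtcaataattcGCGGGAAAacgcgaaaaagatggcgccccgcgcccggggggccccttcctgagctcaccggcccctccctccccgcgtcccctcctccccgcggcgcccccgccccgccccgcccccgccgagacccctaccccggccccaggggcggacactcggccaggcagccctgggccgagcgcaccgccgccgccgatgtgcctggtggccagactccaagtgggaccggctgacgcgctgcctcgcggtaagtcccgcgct
The Dnmt1 window held 1 match that began 219 bases upstream of the start and a second that began 33 bases downstream of it. In Ezh2 the match began 3 bases downstream of the start. Those of Uhrf1, Suz12 and Phf19 began 185, 219 and 208 bases upstream. Peaks covered all 300 bases of each window except that of Phf19, where they covered 151 bases.

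The most CpG-dense member window was that of Tet2 (chr3:133544341-133544640, minus strand), a gene with a called peak in its body, and it is shown with each CpG in capitals.
Tet2: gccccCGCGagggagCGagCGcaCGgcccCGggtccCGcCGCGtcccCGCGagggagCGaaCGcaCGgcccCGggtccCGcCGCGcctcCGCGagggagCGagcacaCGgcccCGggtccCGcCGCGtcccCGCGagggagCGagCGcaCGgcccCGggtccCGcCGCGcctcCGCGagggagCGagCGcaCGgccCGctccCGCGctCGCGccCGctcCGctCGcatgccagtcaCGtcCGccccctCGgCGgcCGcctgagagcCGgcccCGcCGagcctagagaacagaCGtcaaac
It held 57 CpG in 300 bases, and peaks covered 232 of them. Of the other strings searched on both strands, the NRF1 string GCATGCGC was in 9.43% of member windows and 2.71% of all, the YY1 string AAGATGGC in 3.77% and 2.75%, the ETS string CCGGAAGT in 1.89% and 3.89%, CCAAT in 37.7% and 37.4%, and TATAAA in 1.89% and 13.6%. Among windows that touched a peak, the shares were 10.2% and 4.77% for NRF1, 4.08% and 3.95% for YY1, 2.04% and 7.24% for ETS, 34.7% and 37.0% for CCAAT, and 2.04% and 7.25% for TATAAA.

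Promoter accessibility differed far more between members than between ages. Per kb of peak, RefSeq promoters ranged from 18.2 CPM for Tet1 to 123 CPM for Jarid2, with a median of 73.8 CPM against 66.7 CPM for all RefSeq promoters tested. The cofactors Jarid2 and Phf1 and the methyltransferase Ezh1 led, at 123, 120.1 and 121 CPM per kb, and Tet1, Phf19 and Cbx6 were lowest, at 18.2, 24.5 and 25.6 CPM per kb. On the separate scale of annotated promoters, Uhrf1, Jarid2 and Phf1 were highest (176, 174 and 159 CPM per kb) and Hdac1, Kdm2b and Pcgf3 lowest (7.93, 14.6 and 20.5 CPM per kb). The low annotated value of Pcgf3 came from a peak 98 bp wide, whereas the 1076 bp peak over its RefSeq start held 98.01 CPM per kb on the RefSeq scale. That of Kdm2b came from a 108 bp peak, whereas its 7 peaks at RefSeq starts held 52.9 CPM per kb on the RefSeq scale. That of Hdac1 came from a 149 bp peak, with no RefSeq start in the table to compare.

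**Figure D1:**
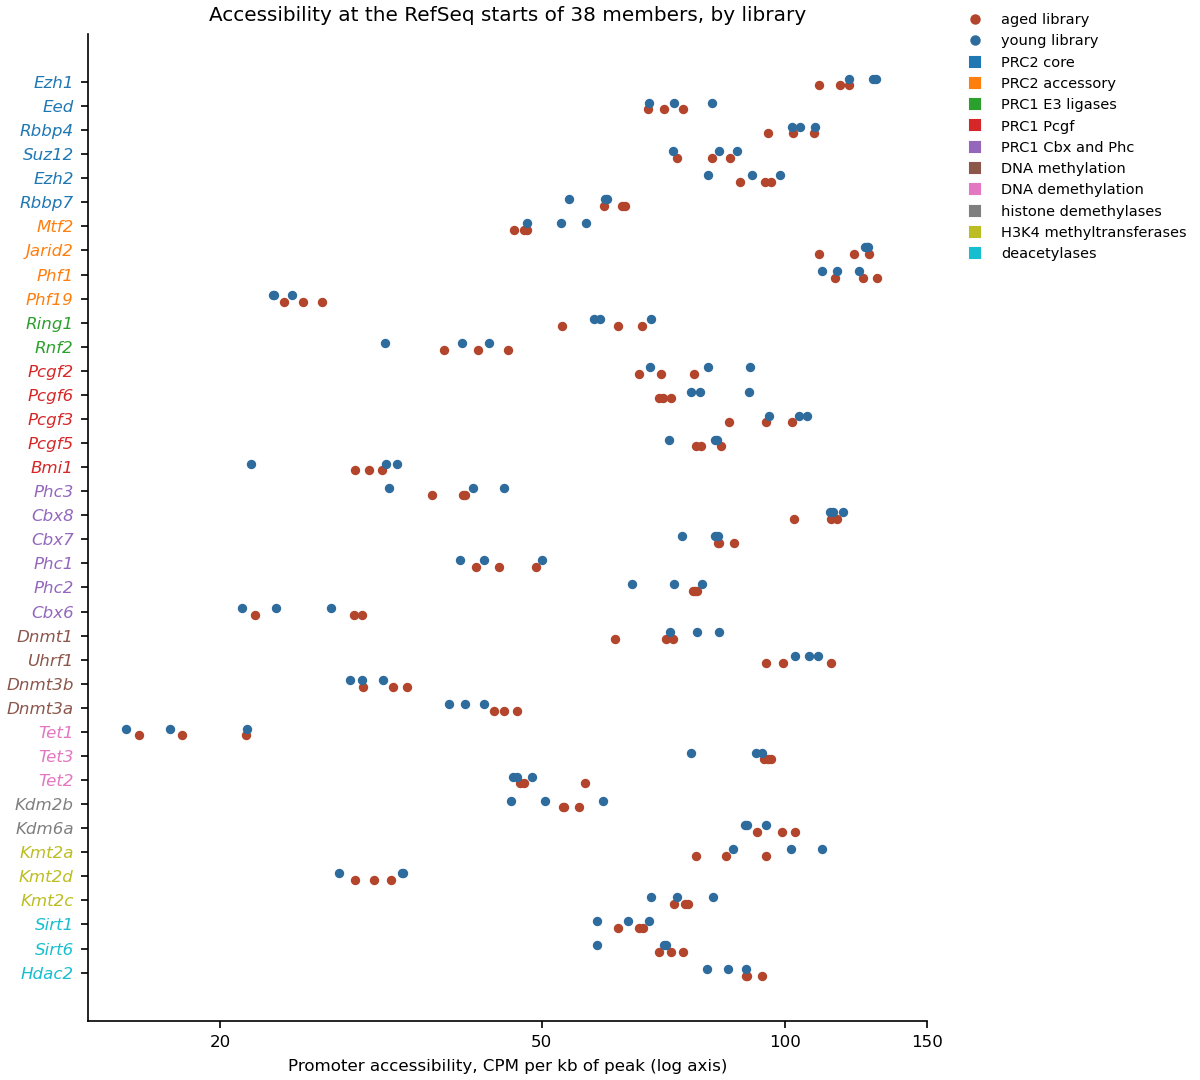
Accessibility at the RefSeq starts of 38 members, in CPM per kb of peak on a log axis, with 1 point per library (red aged, blue young; the colour of a gene's name gives its role). Genes ran from Tet1 at 18.2 to Jarid2 at 123 CPM per kb on average, while the points of the 2 ages lay close together within each gene.

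No member promoter that was tested was called different between ages. Kdm6b and Kmt2b had no promoter peak in either reading. The only promoter peak of Hdac1 failed the filter on low counts. The promoters of these genes were therefore not tested. A difference counts as called where edgeR's quasi-likelihood test gave an adjusted p (Benjamini-Hochberg, over all features of that kind) below 0.05. Log2 fold changes put aged over young, so a negative value means less accessible in aged libraries. Of 38 RefSeq promoters tested, 0 were higher and 0 lower, against 0.632% higher and 0.968% lower of all 14559 tested. With no adjustment, 3 (7.89%) had a p below 0.05, against 9.03% of all. DESeq2 also called 0, against 0.515% higher and 0.797% lower of all. Their log2 fold changes lay between -0.25 (Kmt2a) and 0.17 (Cbx6), with SE from 0.058 to 0.17. Within 0.2 of 0 lay 37 of the 38. The median was 0.013, against -0.0015 for all RefSeq promoters. In bulk chromatin, fewer cells with an open site and a less open site in each cell cannot be told apart.

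By the annotation, 24 of the 26 genes with a promoter peak passed the filter on low counts, and those of Kdm2b and Hdac1 did not. Of the 24, 0 were called higher and 0 lower, against 0.772% and 0.973% of all 13869 annotated promoters. DESeq2 called 0 as well, against 0.635% higher and 0.836% lower of all. In edgeR 2 (8.33%) had an unadjusted p below 0.05, against 8.92% of all. The aged and young libraries did not overlap at 2 of the 24 annotated promoters (8.33%), against 14.0% of all, and at 6 of the 38 RefSeq promoters (15.8%), against 14.5% of all. Those 6 were Dnmt3a, Hdac2 and Tet3 with aged above young, and Mtf2, Pcgf6 and Ezh1 with aged below young. For Hdac2 the lowest aged and highest young values were nearly equal (112.455 and 112.444 CPM). For Mtf2 the highest aged and lowest young values were also nearly equal (54.26 and 54.30 CPM).

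**Figure D2:**
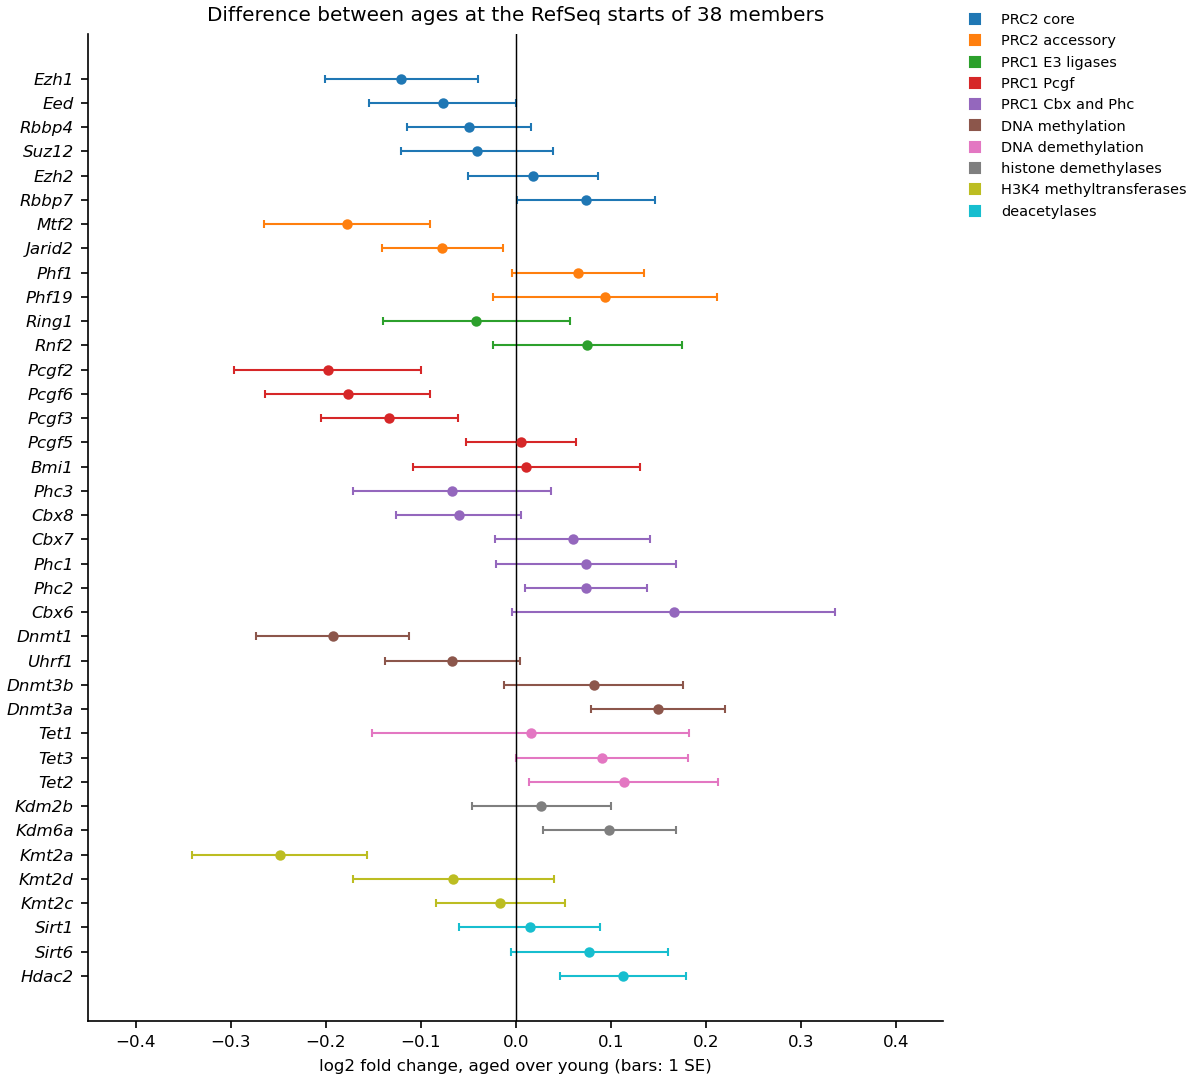
Log2 fold change, aged over young, at the RefSeq starts of 38 members, ordered within each role (points; bars are 1 SE from edgeR). All lie between -0.25 (Kmt2a) and 0.17 (Cbx6), and none was called.

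In the PRC2 core, values are given for libraries 1, 2 and 4 in that order, here and below. The RefSeq promoter of Ezh2, the main H3K27 methyltransferase of dividing cells, held 129, 127 and 118 CPM in aged and 133, 122 and 108 CPM in young libraries, a log2 fold change of 0.018 (SE 0.069) with an adjusted p = 0.97. The promoter of its paralogue Ezh1, which prevails in resting cells, held 68.3, 66.5 and 62.6 CPM in aged and 73.8, 68.3 and 73.2 CPM in young libraries. All 3 aged values of Ezh1 were below all 3 young ones, although aged 1 and young 2 were nearly equal, and the log2 fold change was -0.12 (SE 0.080) with an adjusted p = 0.758. Eed, the subunit that reads the H3K27 mark, held 83.3, 87.9 and 79.7 CPM in aged and 95.5, 85.8 and 79.7 CPM in young libraries. Suz12, the scaffold of the complex, held 82.5, 86.8 and 74.6 CPM in aged and 88.7, 84.3 and 73.9 CPM in young libraries. For Eed and Suz12 the groups overlapped, with log2 fold changes of -0.077 (SE 0.077) and -0.041 (SE 0.080). The histone chaperone Rbbp4 held 128, 120.2 and 112 CPM in aged and 128, 122 and 119.8 CPM in young libraries. Its relative Rbbp7 held 92.2, 87.6 and 92.95 CPM in aged and 88.5, 87.8 and 79.3 CPM in young libraries. Both pairs of groups overlapped, and the lowest adjusted p in the PRC2 core was 0.758.

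Among the proteins that help PRC2 find its sites, the annotated promoter of Mtf2, a reader of CpG islands, held 66.8, 64.1 and 62.7 CPM in aged and 79.3, 72.5 and 63.3 CPM in young libraries. Its log2 fold change was -0.18 (SE 0.094) with an adjusted p = 0.623, and the RefSeq promoter, with 1 peak more, gave -0.18 (SE 0.087) with an adjusted p = 0.559. The annotated promoter of Jarid2, which links PRC2 to PRC1-marked chromatin, held 162, 153 and 136 CPM in aged and 158, 158 and 158 CPM in young libraries, and that of Phf19 held 36.5, 38.5 and 40.3 CPM in aged and 34.99, 36.4 and 34.5 CPM in young libraries. For Jarid2 the lowest and highest library were both aged. For Phf19 the 3 aged libraries lay above the 3 young ones, by a log2 fold change of 0.12 (SE 0.12) with an adjusted p = 0.889. The RefSeq promoter of Phf1, the remaining accessory protein, gave 0.066 (SE 0.070).

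The PRC1 E3 ligases had no annotated promoter peak. At the RefSeq start of Ring1 the libraries held 56.4, 52.7 and 44.9 CPM in aged and 57.8, 49.2 and 50.1 CPM in young libraries, and at that of Rnf2 49.7, 54.6 and 59.6 CPM in aged and 56.4, 52.3 and 41.97 CPM in young libraries. Both genes overlapped between ages, with log2 fold changes of -0.041 (SE 0.099) and 0.075 (SE 0.099). Of the Pcgf proteins, which set the type of PRC1, Bmi1 held 35.2, 36.7 and 38.03 CPM in aged and 38.4, 39.7 and 26.2 CPM in young libraries at its RefSeq start. Young 4 was the lowest of the 6 and the other libraries lay close together. The log2 fold change was 0.011 (SE 0.12). The annotated promoter of Pcgf6 held 72.04, 73.9 and 71.8 CPM in aged and 78.95, 80.4 and 91.7 CPM in young libraries. Each aged value was below each young one, a log2 fold change of -0.18 (SE 0.088) with an adjusted p = 0.561. The RefSeq promoters of Pcgf2 and Pcgf3 had -0.20 (SE 0.098) and -0.13 (SE 0.072), that of Pcgf5 0.0057 (SE 0.058), and the annotated promoter of Pcgf1 0.010 (SE 0.079).

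The Cbx proteins read the PRC2 mark and the Phc proteins polymerise PRC1. The annotated promoter of Phc2 held 13.95, 19.4 and 22.4 CPM in aged and 12.5, 14.2 and 12.7 CPM in young libraries, with the largest log2 fold change among annotated promoters, 0.50 (SE 0.20) with an adjusted p = 0.355. Aged 1 lay below the highest young library, so the groups overlapped on the scale of annotated promoters. This annotated site is a single peak of 397 bp, and at the RefSeq starts of Phc2, where 3 other peaks lie, the log2 fold change was 0.074 (SE 0.064). Over the other Cbx and Phc genes, annotated promoters lay between -0.068 (Phc3) and 0.11 (Cbx6), and the RefSeq promoter of Cbx7, which has no annotated one, was at 0.060.

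For DNA methylation, the annotated promoter of Dnmt1 held 106, 107 and 90.2 CPM in aged and 116, 122 and 105 CPM in young libraries. Aged 4 was the lowest and young 2 the highest, the groups overlapped, and the log2 fold change was -0.19 (SE 0.083) with an adjusted p = 0.449. Uhrf1, its partner, held 95.2, 79.6 and 80.9 CPM in aged and 96.02, 85.01 and 91.7 CPM in young libraries at its annotated promoter, with -0.095 (SE 0.090) with an adjusted p = 0.878. The annotated promoter of Dnmt3a held 61.6, 68.8 and 64.98 CPM in aged and 62.1, 61.7 and 44.6 CPM in young libraries, where young 4 alone was low. At the 4 peaks over the RefSeq starts of Dnmt3a the libraries held 94.7, 101 and 97.5 CPM in aged and 87.3, 91.96 and 83.2 CPM in young libraries. There every aged value exceeded every young one, by a log2 fold change of 0.15 (SE 0.071) with an adjusted p = 0.529, and the unadjusted p was 0.043. The RefSeq promoter of Dnmt3b held 49.3, 45.3 and 51.3 CPM in aged and 45.03, 47.9 and 43.5 CPM in young libraries, with overlapping groups and a log2 fold change of 0.082 (SE 0.094).

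The TET promoters were compared at their RefSeq starts. Tet1 had the least accessible promoter of the 38, with 18.7, 16.5 and 22.5 CPM in aged and 15.9, 22.5 and 18.1 CPM in young libraries. Tet2 held 44.5, 52.9 and 43.9 CPM in aged and 43.1, 43.5 and 45.4 CPM in young libraries, and Tet3 held 54.5, 55.7 and 55.2 CPM in aged and 54.2, 53.3 and 44.3 CPM in young libraries. The log2 fold changes were 0.016 (SE 0.17), 0.11 (SE 0.099) and 0.090 (SE 0.090). Of the 3 genes only Tet3 had all aged values above all young ones, narrowly so at young 1, and its adjusted p was 0.875. The annotated promoter of Tet2 is instead a peak of 267 bp over an exon far from the RefSeq start, with 8.02, 12.1 and 9.11 CPM in aged and 7.85, 7.61 and 9.12 CPM in young libraries and a log2 fold change of 0.30 (SE 0.24) with an adjusted p = 0.82.

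Of the histone modifiers, Kmt2a, an H3K4 methyltransferase of the Trithorax group that acts against Polycomb silencing, had the smallest p of all member promoters at RefSeq starts. It held 60.3, 67.7 and 55.5 CPM in aged and 79.2, 72.7 and 61.6 CPM in young libraries. Aged 4 was the lowest and young 1 the highest, aged 2 lay above young 4, and the log2 fold change was -0.25 (SE 0.092) with an adjusted p = 0.29. Its relatives Kmt2c and Kmt2d were at -0.016 (SE 0.068) and -0.066 (SE 0.11). The H3K27 demethylase Kdm6a and the CpG island binder Kdm2b were at 0.099 (SE 0.070) and 0.027 (SE 0.073). Among the deacetylases, the annotated promoter of Sirt6, an NAD-dependent enzyme tied to DNA repair, held 100.5, 93.1 and 95.8 CPM in aged and 95.3, 95.1 and 77.5 CPM in young libraries, a log2 fold change of 0.077 (SE 0.085) with an adjusted p = 0.902. Hdac2 and Sirt1 at RefSeq starts were at 0.11 (SE 0.066) and 0.015 (SE 0.074), and the annotated promoter of Hdac3 at -0.058 (SE 0.097).

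All calls among the members came from single distal peaks. Of the 211 member peaks 185 passed the filter, and the 26 that did not were 74 to 159 bp wide, with mean accessibility of at most 0.644 CPM in either age. In edgeR 0 of the 185 were called higher and 2 were called lower in aged libraries (1.08%), against 1.07% higher and 0.528% lower of all 129588 tested peaks. At an unadjusted p below 0.05, 5 were higher and 7 lower, together 6.49% against 8.82% of all peaks. DESeq2 called 0 higher and 1 lower, against 0.640% and 0.356% of all peaks. The count of lower calls was 0 without aged 2 and without young 2, and 1 without young 1. The aged and young libraries did not overlap at 19 member peaks (10.3%), against 13.9% of all peaks, with aged above in 6 and below in 13. Over all tested peaks aged was above in 9490 and below in 8481. Below 0 lay 106 of the 185 (57.3%), against 50.7% of all peaks, and the median log2 fold change was -0.034 against -0.0038. This lean was not particular to the members. Other chromatin genes, described below, had 57.1% of 466 tested peaks below 0 and a median of -0.0335. Without aged 4 the share below 0 was 48.5% and without young 4 it was 63.1%.

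**Figure D3:**
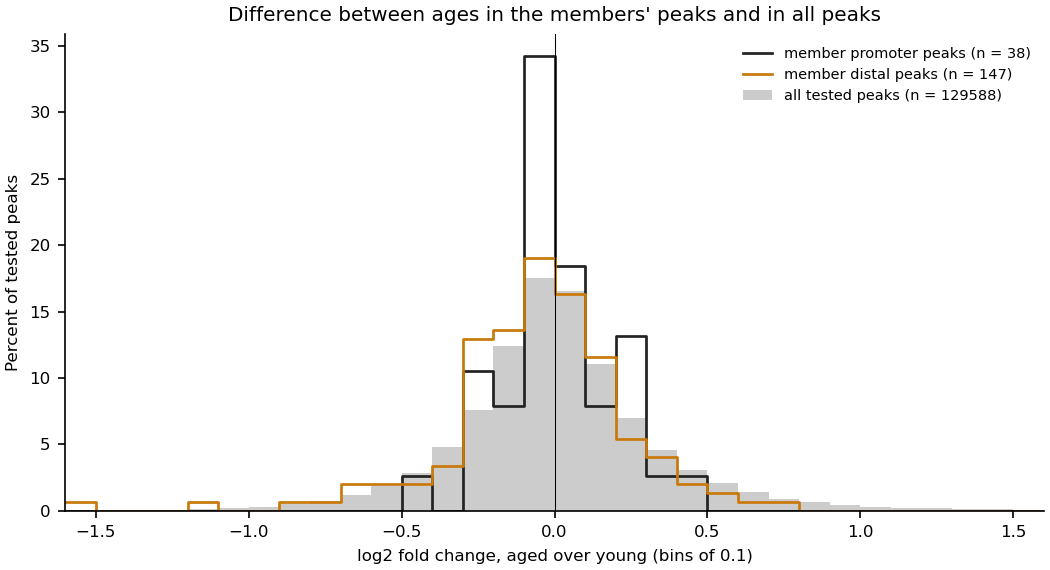
Distribution of log2 fold change, aged over young, in bins of 0.1, as percent of the tested peaks of each set: 38 member promoter peaks (black line), 147 member distal peaks (orange line) and all 129588 tested peaks (grey bars). Member promoter peaks gathered near 0 (median absolute value 0.089, against 0.149 for member distal peaks), and the 2 called peaks lie in the left tail of the distal set. The same gap was seen in general, at 0.105 for all promoter peaks and 0.171 for all distal peaks within 50000 bp. The distal set follows the annotated TSS and so includes some peaks at RefSeq starts.

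The first called peak lies upstream of Cbx2, whose protein reads the PRC2 mark within PRC1. It spans chr11:119007486-119008291 (GRCm38), is intergenic in the annotation at -15837 bp from the Cbx2 TSS, and lies in no RefSeq gene body. It held 10.4, 8.36 and 8.92 CPM in aged and 13.8, 14.7 and 14.8 CPM in young libraries, from 93 to 302 counts per library. Every aged library was below every young one, with means of 9.21 ± 1.03 CPM in aged and 14.4 ± 0.544 CPM in young libraries (SD, n = 3 each). The log2 fold change was -0.65 (SE 0.14) with an adjusted p = 0.00539, that is 1.57 times more accessible in young than in aged. Without aged 2 the adjusted p was 0.0524 and without young 2 it was 0.0633, with log2 fold changes of -0.58 and -0.63. The 2 other tested Cbx2 peaks, at the promoter and in intron 1, were at -0.042 and -0.015.

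Cbx8, a paralogue of Cbx2, is its neighbour, and the annotation gives it 13 peaks. Of its 12 distal peaks 10 were below 0, against 49.7% of all distal peaks within 50000 bp. Neighbouring peaks share libraries and depth, so the common sign of these peaks is a description. The nearest to a call, at -9763 bp from the Cbx8 TSS, held 6.41, 5.18 and 7.27 CPM in aged and 7.87, 8.42 and 8.599 CPM in young libraries, with all aged values below all young ones and a log2 fold change of -0.40 (SE 0.16) with an adjusted p = 0.385. The Cbx8 promoter peak itself was at -0.069 (SE 0.12), so neither Cbx2 nor Cbx8 was called at its promoter.

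The second called peak lies within Tet2. It spans chr3:133506623-133506849, in intron 2 of 2 of the annotated transcript, at -26054 bp from the annotated TSS and 37654 bp from the RefSeq start. It held 1.23, 0.919 and 0.852 CPM in aged and 2.197, 2.18 and 2.229 CPM in young libraries, with means of 1.001 ± 0.203 CPM in aged and 2.202 ± 0.0255 CPM in young libraries (SD, n = 3 each). The 3 young libraries were nearly equal, and the highest aged one was clearly below them. The log2 fold change was -1.14 (SE 0.29) with an adjusted p = 0.0281. The call was lost without aged 2, aged 4, young 1 or young 2 (adjusted p = 0.0976, 0.137, 0.0989 and 0.144), with DESeq2 (adjusted p = 0.151) and after thinning all libraries to the depth of young 4 (adjusted p = 0.442). The log2 fold change stayed between -1.30 and -1.05 with 1 library left out and between -1.15 and -1.12 under the other alternatives. The other 3 Tet2 peaks lay between -0.33 and 0.28, with adjusted p of 0.859 or more.

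Dnmt3a, which like Tet2 is often mutated in the blood cells of older people, came next by p. Its peak at chr12:3825701-3826065, 18723 bp from the TSS in intron 1 of 22, held 2.897, 2.21 and 3.69 CPM in aged and 4.44, 4.903 and 4.94 CPM in young libraries. The peak at chr12:3829368-3829519, 22283 bp from the TSS in the same intron, held 0.986, 0.0836 and 1.19 CPM in aged and 1.83, 1.83 and 2.71 CPM in young libraries. In both, all 3 aged values were below all 3 young ones, and in the second aged 2 had 2 counts. The log2 fold changes were -0.70 (SE 0.21) with an adjusted p = 0.101 and -1.51 (SE 0.47) with an adjusted p = 0.163, neither called.

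Same-numbered aged and young libraries deviated together over all peaks, and with the replicate number as a block both Dnmt3a peaks were called lower (adjusted p = 0.00635 and 0.000295). That fit called 4 member peaks lower, the Cbx2 and Tet2 peaks included (adjusted p = 7.98e-05 and 0.00572), and again 0 higher, while over all peaks it called 1.99% higher and 1.10% lower. Without aged 4 the first Dnmt3a peak had an adjusted p of 0.0402, and without aged 2 the log2 fold change of the second was -0.87.

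Along Dnmt3a the log2 fold change differed between peaks. All 6 tested peaks from 8316 to 22283 bp into the gene were below 0, at -0.26, -0.68, -0.38, -0.39, -0.70 and -1.51 in order from the start. The peaks at -681 and 1348 bp were at 0.21 and 0.13, and the strongest distal peak, at -15184 bp with 25.2 CPM in aged and 25.3 CPM in young, was at -0.0026. Some peaks outside this stretch that were also below 0 are not listed. Besides the 2 peaks nearest to a call, 7 of 11 tested Dnmt3a peaks were below 0. Neighbouring peaks share libraries and depth, so their common sign is a description.

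**Figure D4:**
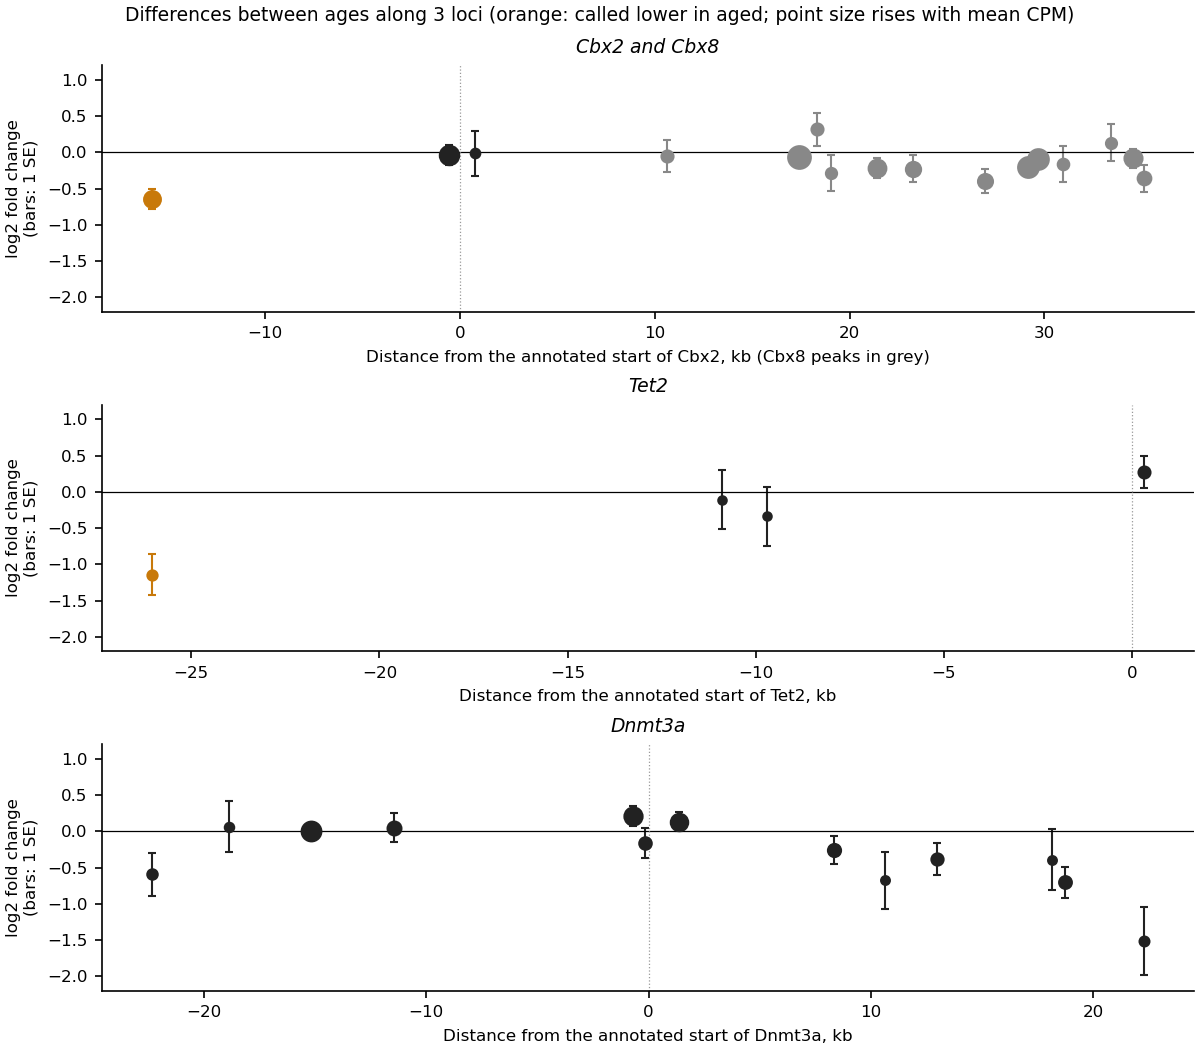
Log2 fold change, aged over young, of each tested peak (points; bars are 1 SE) against distance from the annotated start of Cbx2 (with the peaks of Cbx8 in grey), Tet2 and Dnmt3a. The called Cbx2 and Tet2 peaks (orange, -0.65 and -1.14) are the lowest of their genes, and 6 Dnmt3a peaks in intron 1 lie below 0.

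The other 8 member peaks among the 12 with the smallest p were not called, with adjusted p from 0.322 to 0.558. Of those with aged above young, a Phc1 peak at -4971 bp held 3.88, 4.596 and 3.92 CPM in aged and 2.24, 3.42 and 2.87 CPM in young libraries. The Phc2 promoter peak at -497 bp held 4.93, 6.48 and 7.27 CPM in aged and 4.58, 4.705 and 3.98 CPM in young libraries, and a Kdm2b intron peak at -29109 bp held 14.2, 12.4 and 12.6 CPM in aged and 11.4, 11.1 and 8.92 CPM in young libraries. On the scale of single peaks the groups did not overlap in these 3, although the same Phc2 peak overlapped on the scale of annotated promoters given above, where library scaling differs. They had log2 fold changes of 0.55 (SE 0.21), 0.47 (SE 0.18) and 0.28 (SE 0.14). A second Kdm2b intron peak, at -6943 bp, went the other way, with 2.16, 2.55 and 2.27 CPM in aged and 2.65, 3.42 and 5.89 CPM in young libraries and a log2 fold change of -0.63 (SE 0.25). It did not overlap either, and young 4 stood far above the other young libraries.

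The eighth is the Cbx8 peak described above, and in the remaining 3 the groups overlapped. An intergenic peak 8517 bp from the Bmi1 TSS held 1.48, 0.752 and 0.398 CPM in aged and 1.42, 1.78 and 1.27 CPM in young libraries, a log2 fold change of -0.84 (SE 0.36), with aged 1 among the young values. A Phc2 peak in intron 1, at -29373 bp, held 2.34, 1.42 and 2.896 CPM in aged and 1.65, 1.19 and 1.11 CPM in young libraries, a log2 fold change of 0.67 (SE 0.30). A Dnmt1 peak in intron 1, at 7436 bp, held 0.801, 1.67 and 1.65 CPM in aged and 0.732, 0.891 and 0.955 CPM in young libraries, a log2 fold change of 0.74 (SE 0.35), and aged 1 was within the young range.

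**Figure D5:**
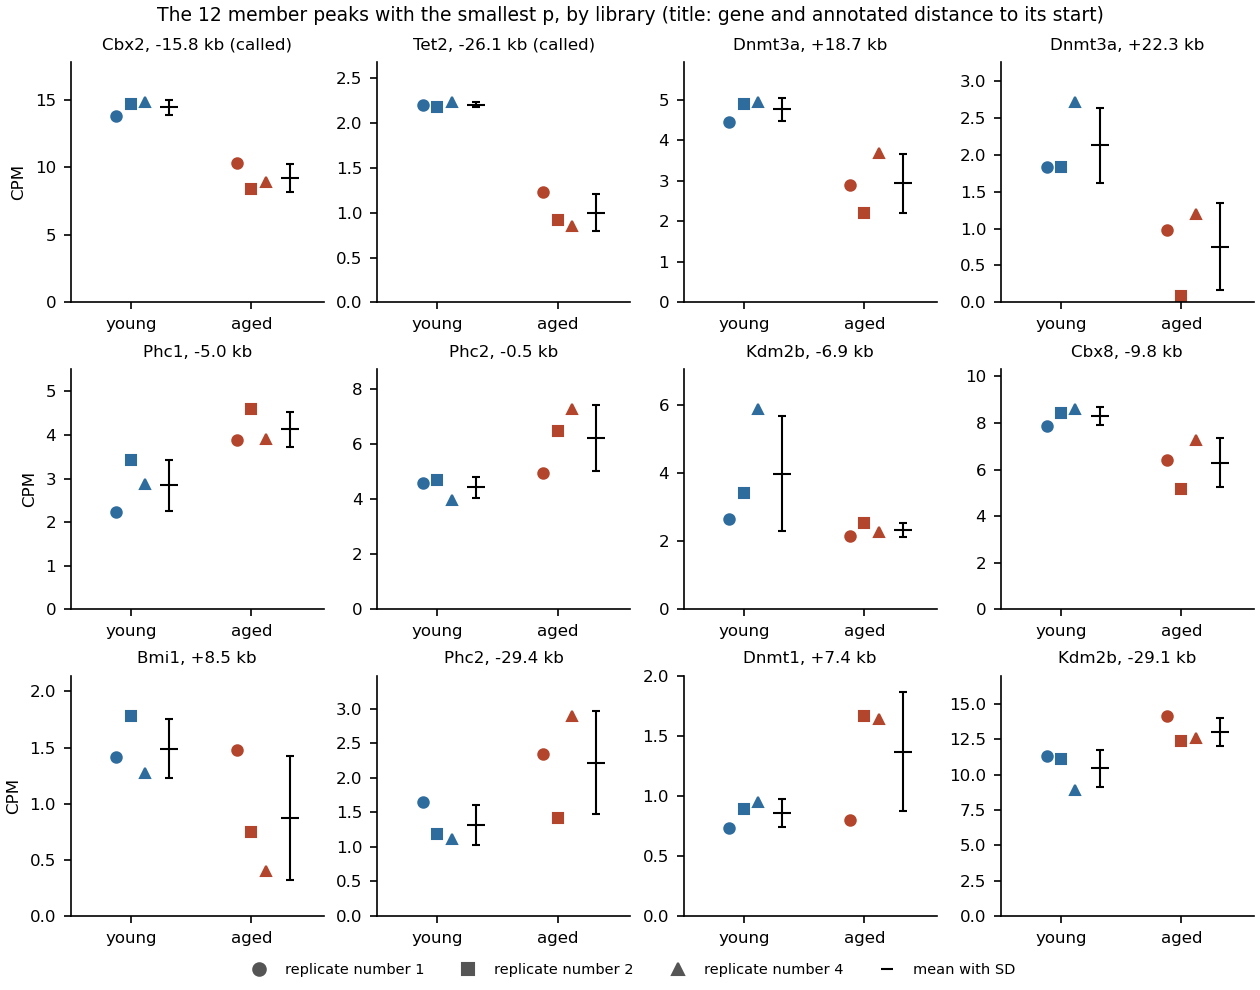
Accessibility in CPM of the 12 member peaks with the smallest p, 1 panel per peak, with libraries 1 (circle), 2 (square) and 4 (triangle) of young (blue) and aged (red) and the mean with SD in black. The Cbx2 and Tet2 peaks were called, and in 9 of the 12 panels the 2 groups do not overlap. Choosing peaks by small p favours such separation. Over all 185 tested member peaks the share without overlap was 10.3%, against 13.9% of all peaks.

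Of the 171 distal peaks, 16 lay within 1000 bp of a RefSeq start of their own gene, so they also counted in the RefSeq promoters. In aged 1, for example, such a peak held 900 of the 932 counts in the Hdac2 distal sum. For Ezh1 it held 522 of 704. Summed over all distal peaks of a gene, 34 of 36 genes were tested, and Kmt2d and Sirt1 fell below the filter. Of the 34, 0 were called higher and 1 lower (2.94%), against 1.15% higher and 0.564% lower of all 23935 distal sums. DESeq2 also called 0 higher and 1 lower, against 1.03% and 0.501% of all. At an unadjusted p below 0.05 edgeR had 2 in each direction, together 11.8% against 9.68% of all. The call was Cbx2, whose sum is the single peak described above (-0.65 (SE 0.13) with an adjusted p = 0.00897), with 17.95, 14.4 and 15.3 CPM in aged and 24.1, 25.4 and 25.02 CPM in young libraries on the scale of distal sums. Without aged 2 and without young 2 its adjusted p was 0.0659 and 0.0694. Aged and young did not overlap in 3 of the 34 (8.82%), against 14.9% of all distal sums.

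The sum of 3 distal Tet2 peaks held 3.63, 4.46 and 3.998 CPM in aged and 6.79, 6.67 and 5.65 CPM in young libraries. It includes the called Tet2 peak described above, so it is not a separate result. All aged values were below all young ones, with a log2 fold change of -0.68 (SE 0.21) with an adjusted p = 0.144. The replicate block gave an adjusted p of 0.0448. Under the alternatives that kept all libraries, the log2 fold change of this sum ran from -0.69 to -0.22. Phc1, with 7 distal peaks, was the third without overlap, at 48.1, 55.2 and 48.6 CPM in aged and 39.2, 44.8 and 46.002 CPM in young libraries, here with aged above young (0.24 (SE 0.11) with an adjusted p = 0.45). The 2 distal peaks of Dnmt1 summed to 1.603, 3.599 and 3.22 CPM in aged and 1.599, 1.71 and 1.61 CPM in young libraries. Aged 1 was at the young level and aged 2 and 4 lay above it, with a log2 fold change of 0.79 (SE 0.34) with an adjusted p = 0.395.

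Pcgf2 and the 12 distal peaks of Cbx8 completed the 6 smallest p. Pcgf2 held 26.5, 30.01 and 24.5 CPM in aged and 38.8, 30.1 and 25.02 CPM in young libraries, a log2 fold change of -0.25 (SE 0.14) with an adjusted p = 0.637. Cbx8 held 234, 189.9 and 204 CPM in aged and 258, 212 and 226 CPM in young libraries, a log2 fold change of -0.15 (SE 0.090) with an adjusted p = 0.673. The groups overlapped in both. The strongest distal sums, those of Kdm6b (12 peaks) and Uhrf1 (7 peaks), were at 0.026 (SE 0.087) and -0.020 (SE 0.081). Of the 34 sums 23 were below 0 (67.6%), against 50.9% of all distal sums and 63.6% of the 77 tested sums of the other chromatin genes described below. When 1 library was left out, the members' share ran from 50% to 76.5%.

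By role, the 2 called peaks were in the Cbx and Phc group (1 of 43 tested peaks) and in the TET group (1 of 9). The PRC2 core had 13 tested peaks, the PRC2 accessory proteins 21, the Pcgf group 24, DNA methylation 26, the histone demethylases 21, the H3K4 methyltransferases 6 and the deacetylases 21, and edgeR called 0 in each. The medians of these groups lay between -0.082 (PRC2 accessory) and 0.014 (TET). The single tested peak of the E3 ligases, at Rnf2, was at -0.54.

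By the annotation's classes 24.6% of member peaks were at promoters and 21.8% intergenic, against 15.9% and 31.99% of all peaks within 50000 bp of their TSS, a difference that was not tested. Inside the RefSeq body of their own gene lay 144 of the 211. The nearest RefSeq start was that of their own gene for 150 and that of another gene for 50. The remaining peaks had no listed start on their chromosome. Pcgf1, Cbx2, Kdm6b, Kmt2b and Hdac1 (1, 3, 12, 2 and 5 peaks) are not in the table of starts. Their peaks could therefore only be nearest to another gene.

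A further 108 genes of the same pathways were followed as a list: other Polycomb proteins, methyl-CpG readers and other H3K4, H3K9, H3K36 and H3K79 enzymes, deacetylases with their corepressors, and acetyltransferases. Of their 466 tested peaks 5 were called higher (1.07%) and 3 lower (0.644%), near the shares of all peaks given above. The largest changes were 2 intergenic peaks at -30027 and -29645 bp from the TSS of the PRC2 cofactor Aebp2. The first held 3.27, 3.84 and 4.71 CPM in aged and 0.549, 0.644 and 0.955 CPM in young libraries, a log2 fold change of 2.59 (SE 0.29) with an adjusted p = 3.54e-07. Every aged value was several times every young one, and the second peak, close beside it, was at 2.85 (SE 0.50) with an adjusted p = 0.00068.

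Both promoter peaks of Asxl3, a partner of the H2A deubiquitinase Bap1, were called lower. Summed as an annotated promoter they held 7.85, 10.1 and 12.96 CPM in aged and 20.05, 24.9 and 22.3 CPM in young libraries, a log2 fold change of -1.12 (SE 0.20) with an adjusted p = 0.000902. The aged values were all below the young ones, and this was the only call among 62 annotated promoters of the list (0 higher, with 0 at an unadjusted p below 0.05 in that direction). Other called peaks were near E2f6 and Usp7, higher by 0.53 and 0.71, and near Hdac11, at -0.79. Among 77 distal sums edgeR and DESeq2 called 0, with 3 at an unadjusted p below 0.05 in edgeR, against 9.68% of all. Among 79 RefSeq promoters edgeR called 0, with 5 at an unadjusted p below 0.05, against 9.03% of all. The log2 fold changes of these 79 ran from -0.25 to 0.13, so no promoter as low as the annotated one of Asxl3 was among them. RefSeq promoters covered only part of the list, and the Asxl3 call was not retested in this reading. A single distal sum was called higher when aged 1 was left out. With the replicate block the peaks of this list gave 8 calls higher and 5 lower, and the distal sums 2 higher and 0 lower, against 2.95% and 1.62% of all distal sums in that fit. Leaving out aged 4 or young 2 left 3 peaks called higher, and without young 2 there were 0 called lower.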

How the data were processed

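ATAC-seq reads of the 6 libraries were processed by the authors before deposition. The submitters' processing notes name Trim Galore 0.6.4, BWA 0.7.17-r1188, SAMtools 1.10, Picard 2.23.1, MACS2 2.2.7.1, featureCounts 2.0.1 and build GRCm38, while read shifting at Tn5 cuts and other settings are not stated there. The deposited table holds whole-number counts per consensus peak, with no normalization, and 1 column per library, while the 4 lane records of a library share that column. A second deposited table gives each peak's nearest TSS and gene. Both list the same 150646 peaks (median width 223 bp), and totals ran from 6149680 to 23935291 counts.

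Counts were taken per peak, summed over promoter peaks (1000 bp or less from the TSS) and over distal peaks (to 50000 bp) of each gene, and, chosen after seeing the data, over peaks whose midpoint lay within 1000 bp of a RefSeq start (GRCm38.p6). Each set was fitted whole with edgeR 4.0.16 in R 4.3.3 (filterByExpr, TMM, quasi-likelihood test of aged against young, robust) with Benjamini-Hochberg adjustment. DESeq2 1.42.0, other scalings, filters and windows, thinning to the shallowest library and leaving out each library were alternatives. The code was tested on simulated data.

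Same-numbered aged and young libraries deviated together over peaks (r = 0.287, 0.209 and 0.167, against -0.209 to 0.0279 for other pairs), and the replicate number was therefore also entered as a block in an alternative fit. The labels do not say what a shared number stands for. Every pair of libraries differed beyond sampling noise (chi-square per peak 1.711 to 4.125).

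The members and gene lists were chosen with earlier results of these data known. Per-library values are given for the 12 peaks, 10 annotated promoters and 6 distal sums of members with the smallest p, for the main subunits and enzymes, and levels for the 3 highest and 3 lowest promoters per kb. For RefSeq promoters and the other chromatin genes, those named were chosen after their values were seen. A called peak of the latter list is not reported here.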

Additional observations from a re-analysis of the deposited data

How the results depend on the processing

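Of 825 values of single member peaks, promoters or sums under alternatives, 10 lost the call and 4 gained it, and 26 values, of 14 of the 53 features followed, had another sign than the one reported. Where neither thinning nor another window was involved, the reported log2 fold changes that turned were at most 0.077 in size, so their direction was not settled. Larger ones turned in these cases. The Tet2 annotated promoter was -0.3886 after thinning to the shallowest library, a setting chosen after seeing the data, where the Dnmt3b annotated promoter was -0.3018 and the Tet2 and Tet3 RefSeq promoters -0.0511 and -0.0296. The Dnmt3a annotated promoter was -0.1354 with a promoter window of 500 bp. Member peaks called lower numbered 1 with DESeq2, 4 with the replicate block, 1 after thinning and 0 to 2 with 1 library left out. Member distal sums called lower numbered 2 with the replicate block and 0 to 1 with 1 library left out. Among the other chromatin genes, peaks called higher numbered 8 with the block, 1 after thinning and 3 to 5 with 1 library left out, and peaks called lower 5, 0 and 0 to 3. Their promoters called lower numbered 0 after thinning. Their distal sums called higher numbered 2 with the block, 2 at an adjusted p below 0.1, 1 with distal peaks to 20000 bp and 0 to 1 with 1 library left out. Thinning and leaving out libraries test fewer counts, and otherwise the cause was not tested. The block changed no other call of a member peak, promoter or sum named in the text. Depth limits low peaks most, since young 4 held 6149680 counts, and the Tet2 call rests on a peak of about 1 to 2 CPM.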

Other observations

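Single libraries took part unevenly in the promoter values. Of the 38 members with a RefSeq promoter, young 4 was the lowest of the 6 libraries in 19 and young 1 the highest in 17. Summed over the 38, aged libraries 1, 2 and 4 held 3086, 3098 and 2948 CPM and the young libraries 3187, 3065 and 2852 CPM, so the groups overlapped. Without young 4, 60.5% of the 38 log2 fold changes were below 0, against 44.7% with it.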
